A study of Homo sapiens with 7 samples.

Results

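The 4 mature miRNAs described here, hsa-miR-675-5p, hsa-miR-675-3p, hsa-miR-483-5p and hsa-miR-483-3p, come from the imprinted H19 and IGF2 neighbourhood of human chromosome 11. They were taken by name from count tables that list 2652 miRNAs, and all 4 have an entry in every library. The RNA came from HepG2 cells, a long-established human liver tumour line that still makes many fetal liver transcripts, and small RNA libraries were sequenced. The treated cells received 1 of 2 siRNAs directed at TEAD1, which encodes a DNA-binding partner of the Hippo effectors YAP and TAZ, and were harvested at 24, 36 or 48 h. They carry the genotype label TEAD1 knockdown, and each siRNA and time has 1 library, which makes 6 siRNA libraries. They were set against 1 library of untreated HepG2 cells at 0 h, with the genotype label WT. All the cells were grown in DMEM with serum and antibiotics. No library with a control siRNA is listed, so effects of transfection, of the hours in culture and of TEAD1 loss cannot be told apart. TEAD1 mRNA is not measured by these libraries, and nothing says that the libraries came from separate cultures, so p-values measure only the spread between these libraries.

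H19 and IGF2 are neighbours that share enhancers and an imprinting control region. In most fetal tissues, the liver among them, H19 is transcribed from the maternal chromosome and IGF2 from the paternal one. H19 is a long noncoding RNA and the precursor of miR-675, and IGF2 encodes a fetal growth factor and carries miR-483 in an intron. In adult liver H19 and the fetal promoters of IGF2 are low, and they are often active again in liver tumours. A miRNA hairpin is cut by Drosha and Dicer into a 5p and a 3p arm, and the arm loaded into an Argonaute protein is usually the more abundant one. In mouse placenta, miR-675 is known to restrain growth and to target Igf1r, and in human colorectal cancer cells miR-675-5p is known to target RB1. In human tumour cells, miR-483-3p is known to target BBC3, which encodes the apoptosis protein PUMA, and miR-483-5p is known to raise transcription of its host IGF2.

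Both arms of miR-675, which held nearly all of the reads of the 4 miRNAs, are shown, since the results below differ between them. The sequences are those of RefSeq (GRCh38.p14), 5′ to 3′. Of the 4 miRNAs, 2 had an entry in the reference set used here, the arms of miR-675. That set held none for miR-483, so its sequences were not compared. Capitals in the mature arms mark the seed, bases 2 to 8, which sets most of the target pairing.
hsa-miR-675-5p: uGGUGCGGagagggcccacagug
hsa-miR-675-3p: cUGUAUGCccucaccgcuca
In the hairpin, capitals mark the 5p arm and then the 3p arm.
MIR675 hairpin: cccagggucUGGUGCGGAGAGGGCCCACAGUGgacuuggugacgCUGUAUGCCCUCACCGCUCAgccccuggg
The 5p arm has 23 bases with a GC content of 69.6%, and the 3p arm has 20 bases and a somewhat lower GC content. Their seeds differ, so the arms pair with different sites. Among all miRNAs in the count tables, by the sequences given there, only miR-4466 shares the miR-675-5p seed, and its counts were too low to be tested. None shares the miR-675-3p seed, and no other entry has the same mature sequence as either arm, so no identical copy shares their reads.

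The MIR675 hairpin lies on the minus strand of chromosome 11 from 1996759 to 1996831 (GRCh38). The 5p arm spans 1996800 to 1996822 and the 3p arm 1996768 to 1996787. In the GENCODE 29 annotation, H19 spans 1995176 to 2001470 on the same strand and has 12 transcripts, of which 5 span the hairpin. The hairpin is in exon 1 of 4 of these and in an intron of the other one. It is therefore exonic, in a noncoding RNA. The MIR483 hairpin lies on the minus strand from 2134134 to 2134209, in an intron of 9 of the 11 IGF2 transcripts and of 1 INS-IGF2 read-through transcript. The 2 hairpins are 137302 bases apart.

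Libraries held 13134601 to 15591345 reads. Of these, 1920832 to 3739729 were assigned to a miRNA in siRNA libraries and 6171851 in the untreated library, or 13.4% to 26.5% and 43.1% of the reads. Levels are given as CPM, read counts scaled to the assigned miRNA reads of the library, with TMM, a normalization that centres the bulk of the miRNAs, unless total-count CPM is stated. When no read was seen, up to 3 reads remain possible, which is 0.203 CPM over the 6 siRNA libraries together and 0.486 CPM in the untreated library, on total counts. The library of siRNA 1 at 36 h stood apart through miR-1-3p, a muscle miRNA, at 867 CPM. Over a list of 7 muscle miRNAs, of which 2 were at 0 in every library, the sum was 21.6 to 881 CPM in siRNA libraries and 24.1 CPM in untreated cells. A list of 5 miRNAs of fibroblasts and smooth muscle, none of them at 0 throughout, summed to 171 to 765 CPM in siRNA libraries and 165 CPM in untreated cells. With siRNA 2 and siRNA 1, its sums were 171 and 205 CPM at 24 h, 731 and 765 CPM at 36 h, and 399 and 466 CPM at 48 h. In every library most of its sum was miR-143-3p. A list of 5 hepatocyte miRNAs summed to 16112 to 27483 CPM in siRNA libraries and 21025 CPM in untreated cells, with miR-122-3p at 0 everywhere. Lists for endothelium and for blood cells summed to 239 to 438 CPM and 13.4 to 76.8 CPM in siRNA libraries, against 295 CPM and 13.8 CPM in untreated cells. The blood sums at 48 h were 33.0 CPM with siRNA 2 and 44.6 CPM with siRNA 1, and most of each was miR-451a. Results that rest on the 36 h pair are therefore also given without it.

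miR-675-5p was lower in all 6 siRNA libraries than in untreated cells, and its partner arm miR-675-3p was not. The 5p arm had 102 CPM with siRNA 2 and 155 CPM with siRNA 1 at 24 h, 101 and 154 CPM at 36 h, and 103 and 84.8 CPM at 48 h, against 212 CPM in untreated cells. The siRNA 1 libraries of 24 h and 36 h were the highest of the 6, the other 4 lay close together, and none reached the untreated value. Behind these values stand 194 to 525 reads in siRNA libraries and 1139 reads in the untreated library. The highest upper bound of a 95% counting interval in an siRNA library was 173 CPM, and the untreated interval was 200.3 to 225 CPM. This gap rests on the scaling. On total-count CPM, siRNA 1 at 36 h had 159 CPM (141 to 178) and the untreated library 185 CPM (174 to 196), so these intervals overlapped. The siRNA libraries averaged 117 ± 30.3 CPM (SD, n = 6). Among the 458 miRNAs tested, 62 (13.5%), miR-675-5p among them, were below the untreated value in all 6 siRNA libraries, and 47 (10.3%) were above it in all 6, so such an order was shared with many others. In bulk libraries such as these, fewer cells making a miRNA and less of it per cell cannot be told apart.

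miR-675-3p had 78.2 CPM with siRNA 2 and 66.8 CPM with siRNA 1 at 24 h, 68.1 and 87.6 CPM at 36 h, and 99.3 and 80.8 CPM at 48 h, against 67.3 CPM in untreated cells. The groups overlapped: 5 siRNA libraries were above the untreated value and siRNA 1 at 24 h was just below it. The reads behind these values numbered 165 to 238 in siRNA libraries and 361 in the untreated library. The siRNA libraries averaged 80.2 ± 12.3 CPM (SD, n = 6). The intervals of siRNA 2 at 48 h, 87.1 to 113 CPM, and of siRNA 1 at 36 h, 75.02 to 102 CPM, lay above the untreated one of 60.6 to 74.6 CPM. On total-count CPM every siRNA library was above the untreated 58.5 CPM, the lowest being siRNA 1 at 24 h with 60.4 CPM. By level, the 3p arm ranked 158 to 177 among all miRNAs in siRNA libraries and 181 in the untreated library, while the 5p arm ranked 130 to 164 in siRNA libraries and 121 in the untreated one.

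**Figure D1:**
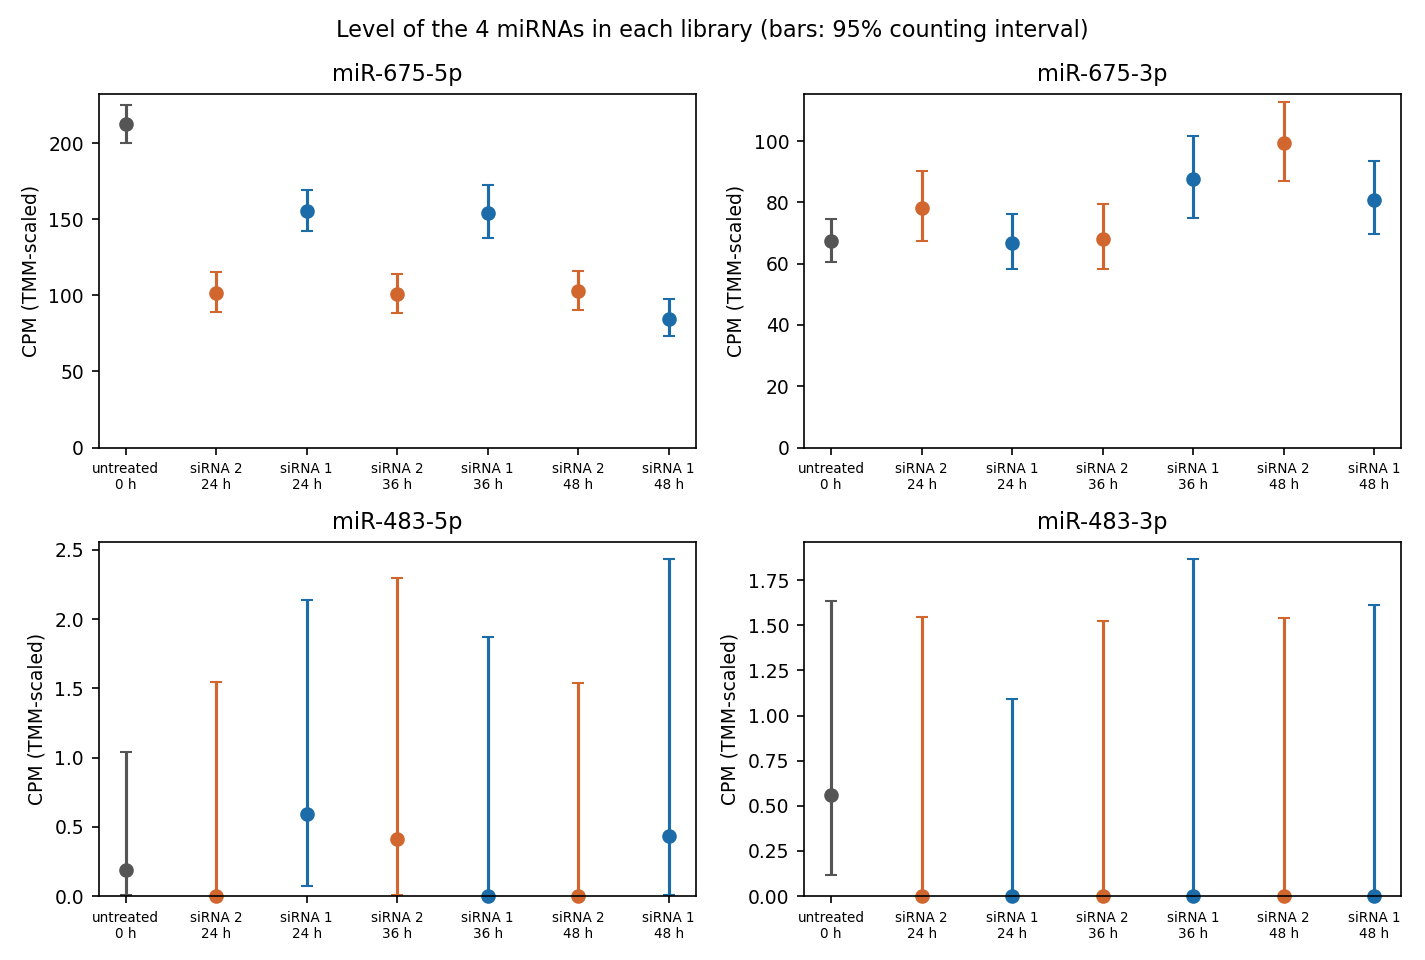
Level of each of the 4 miRNAs (y axis, TMM-scaled CPM) in each library (x axis, by time, siRNA 2 in orange, siRNA 1 in blue and untreated in grey). Points are single libraries and bars are 95% counting intervals. The 6 siRNA libraries sit between 84.8 and 155 CPM for miR-675-5p, below 212 CPM in untreated cells, and between 66.8 and 99.3 CPM for miR-675-3p, around 67.3 CPM in untreated cells.

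The comparison of TEAD1 siRNA with untreated cells asks which miRNAs differ once TEAD1 is targeted. Over all 3 times, the log2 fold change of miR-675-5p was -0.88 ± 0.36 (SE; adjusted p = 0.899, edgeR quasi-likelihood test). For miR-675-3p it was 0.24 ± 0.33 (adjusted p = 0.899, edgeR). None of the members passed the threshold, and neither did any of the 458 miRNAs tested (0%). At an unadjusted p under 0.05, edgeR held 23 of the 458 miRNAs, miR-675-5p among them. That is about the share of 0.05 that chance alone gives. DESeq2 called 1 miRNA after adjustment, no member of the family, and limma-voom called 0. The median log2 fold change of all tested miRNAs was -0.05 on the TMM scale, which centres the bulk of the miRNAs by construction. When libraries were scaled by all their reads instead, assigned or not, that median moved to -1.13 and the 5p arm to -1.96 (adjusted p = 0.00977, edgeR, 26.2% of miRNAs called). At 36 h and 48 h the 5p arm stood at -1.995 (adjusted p = 0.0497, 10.7% called) and -2.29 (adjusted p = 0.0119, 25.8% called) on that scale (edgeR). Over all times the 3p arm stood at -0.86 on it (adjusted p = 0.182, edgeR), so its direction depends on the scaling, while the 5p arm was negative under each of the 16 alternative settings.

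The call on miR-675-5p depended on the 36 h pair. Without both 36 h libraries, it fell in siRNA cells, with a log2 fold change of -0.90 ± 0.26 (SE; adjusted p = 0.0116, edgeR), while 50 of 467 miRNAs (10.7%) were called. The size of the change stayed close to that with all libraries, and its error was smaller. Without siRNA 1 at 36 h alone, the adjusted p was 0.0113 with 65 calls (14.2%), and without siRNA 2 at 36 h alone it was 0.0412 with 31 calls (6.71%). Without the 36 h pair, miR-675-3p stood at 0.32 ± 0.30 (SE; adjusted p = 0.639, edgeR) and was not called.

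By time, the mean difference of the 5p arm over both siRNAs was largest at 48 h. This order rested on siRNA 1, as siRNA 2 had 102, 101 and 103 CPM at 24, 36 and 48 h. On total-count CPM, siRNA 2 had 86.5, 118 and 117 CPM at these times. At 24 h the 5p arm averaged 128 ± 37.9 CPM, at 36 h 128 ± 38.0 CPM and at 48 h 93.7 ± 12.7 CPM (SD, n = 2 each), against 212 CPM in untreated cells. The wide spread at 24 h and 36 h came from the higher siRNA 1 library of each pair, and at 48 h both siRNAs were low. Against untreated cells, edgeR gave log2 fold changes of -0.72 ± 0.43 at 24 h (SE; adjusted p = 0.997), -0.74 ± 0.43 at 36 h (adjusted p = 0.946) and -1.18 ± 0.42 at 48 h (adjusted p = 0.367). None passed the threshold, and edgeR called 0% of the 458 miRNAs at each of the 3 times. It held 11, 19 and 53 miRNAs at an unadjusted p under 0.05 at 24, 36 and 48 h. The counts at 24 h and 36 h are below the share of 0.05 that chance alone gives, and that at 48 h is above it. DESeq2 called 1, 7 and 12 after adjustment, none of them a member, and limma-voom called 0 at each time.

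Without both 36 h libraries, miR-675-5p fell at 48 h (-1.13 ± 0.30 SE, adjusted p = 0.00146, edgeR, 25.1% of 467 miRNAs called). At 24 h it was not called without that pair (-0.66 ± 0.30 SE, adjusted p = 0.394, edgeR, 2.78% called). With all other libraries kept, the 24 h value was -1.06 without siRNA 1 at 24 h and -0.46 without siRNA 2 at 24 h, and neither was called (edgeR). A change at 48 h past the threshold thus came together with calls for many other miRNAs. In both 48 h libraries the fibroblast and smooth muscle list, at 399 and 466 CPM, was also above the untreated sum of 165 CPM. The blood list, at 33.0 and 44.6 CPM, was also above its untreated sum of 13.8 CPM. Nearly all of each sum came from 1 miRNA. On total-count CPM, miR-143-3p gave 442 of 456 CPM with siRNA 2 and 483 of 505 CPM with siRNA 1. For miR-451a these were 36.7 of 37.7 CPM and 45.4 of 48.2 CPM. The part of these lists in the 48 h values was not tested. At 36 h itself, leaving out siRNA 1 gave -1.04 ± 0.36 (SE; adjusted p = 0.0473, edgeR, 19.8% called), which sets 1 siRNA library against 1 untreated library with the spread taken from the other times. Leaving out siRNA 2 at 36 h gave -0.46 ± 0.35 (SE; adjusted p = 0.707, edgeR, 3.03% called).

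The 3p arm averaged 72.5 ± 8.08 CPM at 24 h, 77.8 ± 13.8 CPM at 36 h and 90.1 ± 13.1 CPM at 48 h (SD, n = 2 each), against 67.3 CPM in untreated cells. Its log2 fold changes were 0.11 ± 0.37 at 24 h (SE; adjusted p = 0.997), 0.21 ± 0.38 at 36 h (adjusted p = 0.946) and 0.42 ± 0.38 at 48 h (adjusted p = 0.620, all edgeR). None was called, and each error was close to or above the size of the change. The 24 h value turned to -0.02 without siRNA 2 at 24 h.

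**Figure D2:**
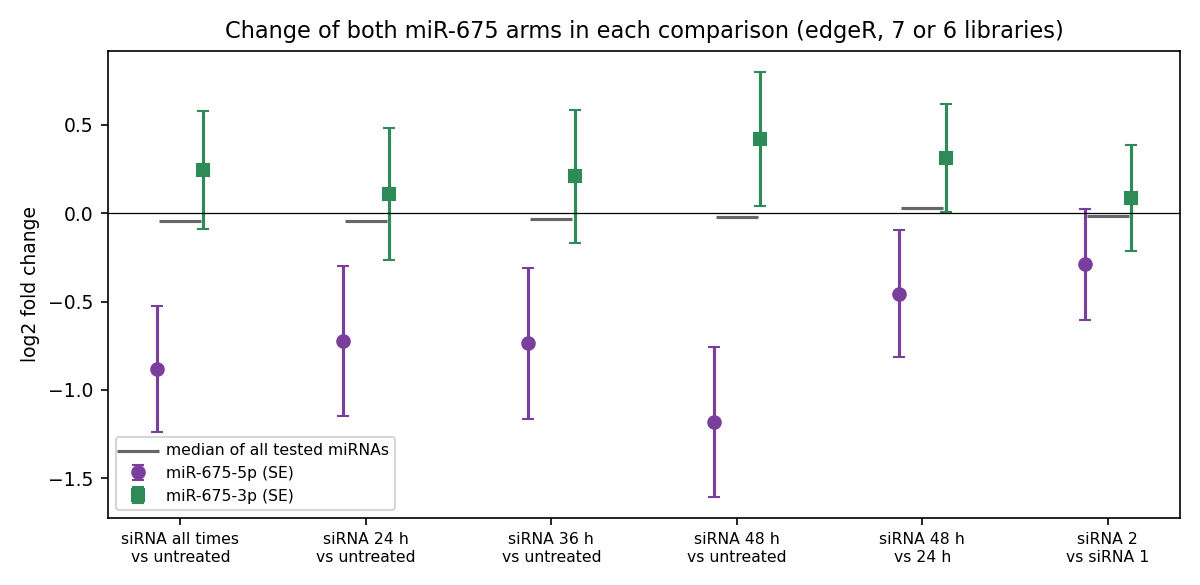
Log2 fold change (y axis) of miR-675-5p and miR-675-3p in each of the 6 comparisons (x axis), with edgeR standard errors as bars and the median of all tested miRNAs as grey dashes. In every comparison with untreated cells the 5p point is below 0 and the 3p point above it, and no point passed the threshold.

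Within the hairpin, the 5p arm held a smaller share of the reads in every siRNA library than in untreated cells. A share of 5p and 3p reads from the same library does not depend on the scaling between libraries. Ligation-based kits do not capture all sequences equally, so such a share is compared between libraries and is not a ratio of molecules. The 5p arm made up 56.5% (95% Clopper-Pearson interval 51.7% to 61.3%) of miR-675 reads with siRNA 2 and 69.9% (66.5% to 73.2%) with siRNA 1 at 24 h. At 36 h it made up 59.7% (54.7% to 64.4%) with siRNA 2 and 63.8% (59.3% to 68.1%) with siRNA 1. At 48 h it made up 50.8% (46.3% to 55.4%) with siRNA 2 and 51.2% (46.0% to 56.3%) with siRNA 1, against 75.9% (73.7% to 78.1%) in untreated cells. No interval of an siRNA library reached the untreated one, and at 48 h the 2 arms had nearly equal numbers of reads with both siRNAs. The mean was 58.6% ± 7.43 (SD, n = 6). Reads carry no molecular identifiers here, so these intervals cover counting error only.

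**Figure D3:**
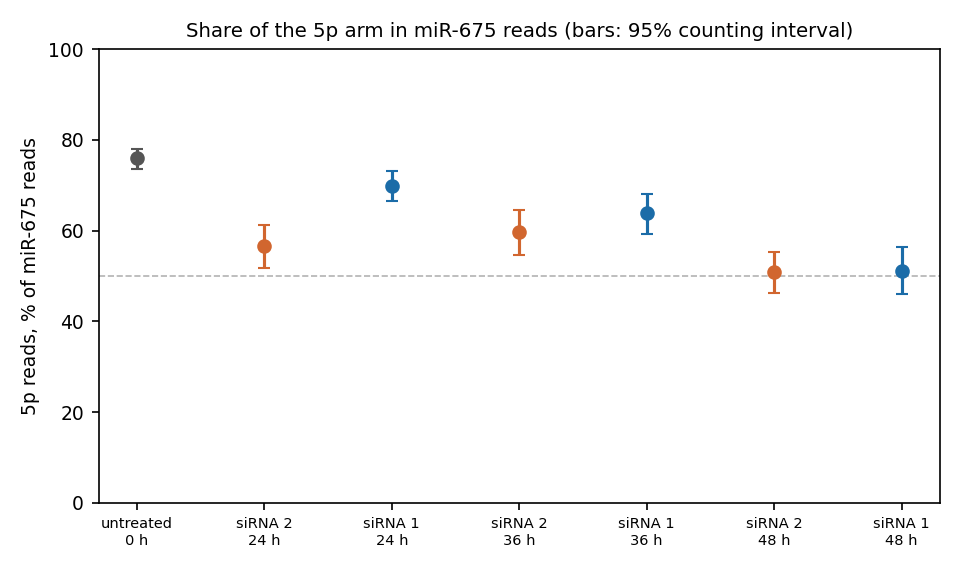
Share of the 5p arm among all miR-675 reads (y axis, percent) in each library (x axis, by time, siRNA 2 in orange, siRNA 1 in blue, untreated in grey), with 95% counting intervals as bars and a dashed line at equal arms. The 6 siRNA libraries lie between 50.8% and 69.9%, below 75.9% in untreated cells, and both 48 h libraries lie at the dashed line.

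As log2 of 5p over 3p reads, with 0.5 added to each, the ratio averaged 0.51 ± 0.45 in siRNA libraries (SD, n = 6) and was 1.66 in untreated cells. The difference of -1.14 gave p = 0.143 in an exact two-sided permutation test, which is the smallest p that 6 libraries against 1 allow. Over the 110 hairpins with both arms at a mean of at least 10 reads, the ratio was below the untreated one in all 6 siRNA libraries for 11 (10%), miR-675 included, and above it in all 6 for 10 (9.09%). A ratio shifted the same way in all 6 libraries was thus not rare.

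Tested with limma over the 110 hairpins, the miR-675 arm ratio differed from untreated cells by -1.14 ± 0.49 over all times (SE; adjusted p = 0.890). It was the 6th lowest of the 110, and 11 hairpins including miR-675 changed by at least as much in either direction. Of the 110, limma called none (0%). It held 2 at an unadjusted p under 0.05, below the share of 0.05 that chance alone gives. By time, limma gave -0.86 ± 0.56 at 24 h (SE; adjusted p = 0.99996, 0% called), -0.97 ± 0.56 at 36 h (adjusted p = 0.918, 0% called) and -1.60 ± 0.56 at 48 h (adjusted p = 0.333, 0% called, 15 hairpins at an unadjusted p under 0.05). The ratio at 48 h again had the largest difference of the 3 times. At 24 h the difference was -1.28 without siRNA 1 at 24 h and -0.44 without siRNA 2 at 24 h.

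The arm ratio also passed the threshold once 36 h libraries were left out. Without both, the 48 h ratio of miR-675 fell by 1.60 on the log2 scale (SE 0.46, adjusted p = 0.00777, limma, 22.7% of hairpins called). It was also called without either 36 h library alone, with the same difference of -1.60. These settings leave the 48 h and untreated values as they are. Each takes the spread between the 36 h libraries out of the error, so they are not separate tests. Over all times, the ratio was called only without siRNA 1 at 36 h (-1.18 ± 0.41 SE, adjusted p = 0.04999, limma, 12.7% called). It was not called without the pair (-1.23 ± 0.42 SE, adjusted p = 0.116, limma, 2.73% called).

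**Figure D4:**
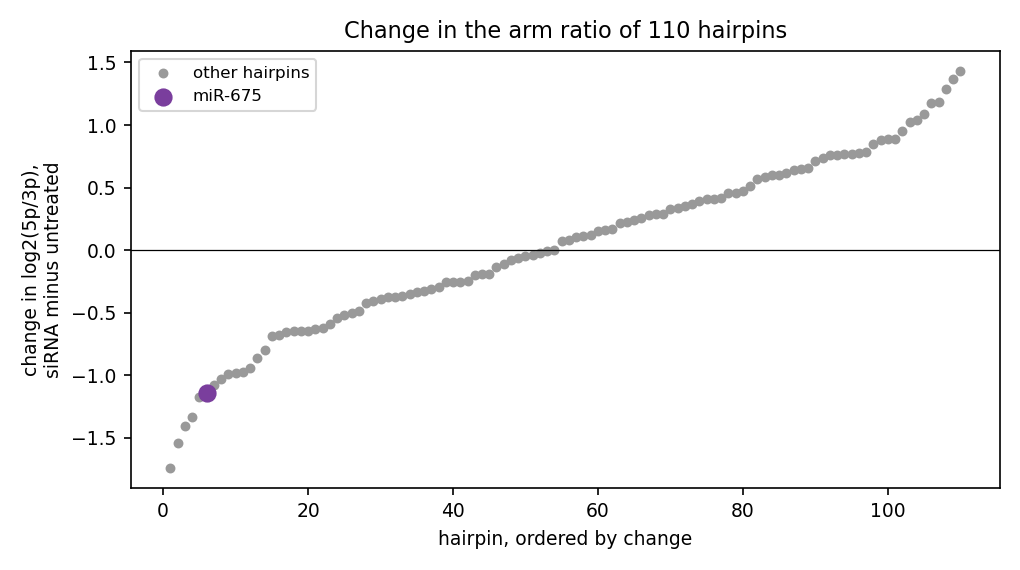
Change in log2(5p/3p), mean of the 6 siRNA libraries minus untreated (y axis), for 110 hairpins ordered by that change (x axis), with miR-675 in purple. miR-675, at -1.14, is among the lowest 6 hairpins, and changes of at least its size stand at both ends.

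Summed over both arms, miR-675 stood at 180 CPM with siRNA 2 and 222 CPM with siRNA 1 at 24 h, 169 and 242 CPM at 36 h, and 202 and 166 CPM at 48 h, against 280 CPM in untreated cells. All 6 siRNA libraries were below the untreated one, with a mean of 197 ± 30.8 CPM (SD, n = 6). This order rests on the scaling: on total-count CPM, siRNA 1 at 36 h had 249 CPM and the untreated library 243 CPM. When the arms of each hairpin were summed before the test, edgeR gave a log2 fold change of -0.52 ± 0.31 over all times (SE; adjusted p = 0.823) and called 0% of 353 hairpins. At 48 h the summed value was -0.61 ± 0.36 (SE; adjusted p = 0.434, edgeR, 0% called). Without the 36 h pair the sum was still not called, with adjusted p = 0.267 over all times (4.74% called) and 0.156 at 48 h (17.5% called, edgeR). Unlike the 5p arm alone, the hairpin as a whole did not pass the threshold under that setting, and the difference between both readouts was not tested.

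Between the late and the early siRNA libraries, neither arm was called. The 5p arm averaged 93.7 ± 12.7 CPM at 48 h and 128 ± 37.9 CPM at 24 h (SD, n = 2 each), and the groups overlapped in range only through siRNA 2, whose 48 h and 24 h values were 103 and 102 CPM. With siRNA 1 the 5p arm stood at 84.8 CPM at 48 h and 155 CPM at 24 h. edgeR gave -0.46 ± 0.36 for the 5p arm (SE; adjusted p = 0.499) and 0.31 ± 0.31 for the 3p arm (adjusted p = 0.589), with 0% of 458 miRNAs called. It held 84 miRNAs at an unadjusted p under 0.05, where DESeq2 called 21 and limma-voom 0 after adjustment. The 5p value was -0.12 without siRNA 1 at 24 h, -0.12 with total miRNA counts as the scale and -0.91 with a GC trend removed, so its size was poorly fixed. Without the 36 h pair, where 28.7% of miRNAs were called, the adjusted p was 0.161 for the 5p arm and 0.420 for the 3p arm (edgeR). The arm ratio was 0.06 ± 0.01 at 48 h and 0.80 ± 0.44 at 24 h on the log2 scale (SD, n = 2 each). Its difference of -0.74 gave p = 0.333 in an exact two-sided permutation test, the smallest p that 2 against 2 allow, and limma gave -0.74 ± 0.45 (SE; adjusted p = 0.398, 0% called). That difference was -0.32 without siRNA 1 at 24 h and -1.16 without siRNA 2 at 24 h.

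The siRNAs stood apart in the 5p arm at 24 h and 36 h, and neither arm was called between them. At 24 h and 36 h, siRNA 2 had 102 and 101 CPM of miR-675-5p, and siRNA 1 had 155 and 154 CPM. At 48 h siRNA 2 had 103 CPM and siRNA 1 had 84.8 CPM, so the order turned. With time as a factor, edgeR gave -0.29 ± 0.31 for the 5p arm (siRNA 2 over siRNA 1, SE; adjusted p = 0.992) and 0.09 ± 0.30 for the 3p arm (adjusted p = 0.992). The 5p value ranged from -0.60 to -0.10 with single libraries left out and was -0.07 without the 36 h pair. Of 435 miRNAs, edgeR called 0%. It held 6 of them at an unadjusted p under 0.05, and DESeq2 and limma-voom called 0 after adjustment. The arm ratio differed by -0.37 ± 0.53 (SE; adjusted p = 0.994, limma, 0% called), and the sum of the arms by -0.11 ± 0.27 (SE; adjusted p = 0.990, edgeR, 0% called). The sum turned to 0.07 without the 36 h pair.

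miR-122-5p, the defining miRNA of hepatocytes, was far from even across the libraries. It had 4.603 CPM with siRNA 2 and 32.2 CPM with siRNA 1 at 24 h, 6.60 and 47.6 CPM at 36 h, and 3.76 and 4.37 CPM at 48 h, against 45.5 CPM in untreated cells. Other hepatocyte miRNAs of the list did not share this pattern. At 48 h on total-count CPM, miR-192-5p had 3337 CPM with siRNA 2 and 3320 CPM with siRNA 1, against 2155 CPM in untreated cells. miR-194-5p had 102 and 90.8 CPM, against 63.5 CPM. miR-148a-3p, which made up most of the list sum, had 15941 and 18969 CPM, against 16007 CPM. The 2 siRNA libraries with the most miR-122-5p were the 2 with the most miR-675-5p. The library with the muscle miRNA, siRNA 1 at 36 h, was one of them, and it had 154 CPM of the 5p arm and 87.6 CPM of the 3p arm, both inside the range of the other siRNA libraries. The part of these other miRNAs in the miR-675 values was not tested.

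**Figure D5:**
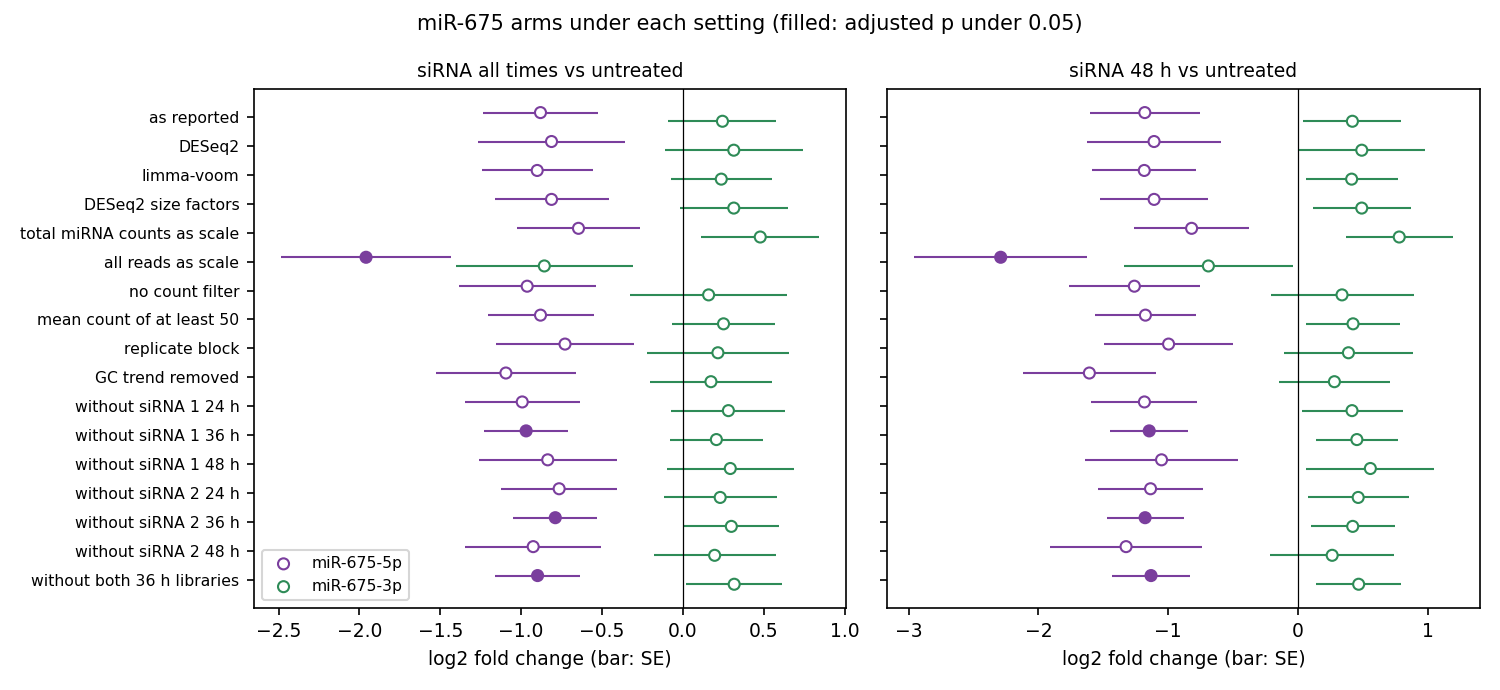
Log2 fold change (x axis, bars are standard errors) of miR-675-5p and miR-675-3p over all times and at 48 h against untreated cells, under each processing setting (y axis). Filled points have an adjusted p under 0.05: the 5p arm is filled when all reads set the scale and when one or both 36 h libraries are left out, and the 3p arm is never filled.

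miR-483 was at the limit of detection in every library. miR-483-5p had 0 reads with siRNA 2 and 2 reads with siRNA 1 at 24 h, 1 and 0 reads at 36 h, and 0 and 1 reads at 48 h, against 1 read in untreated cells. miR-483-3p had 0 reads in all 6 siRNA libraries and 3 reads in untreated cells. Neither arm reached the mean of 10 reads needed for a test, and no fold change is given.

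Over the 6 siRNA libraries together, miR-483-5p stood at 0.271 total-count CPM (95% interval 0.0739 to 0.694), against 0.162 CPM (0.0041 to 0.903) in untreated cells. miR-483-3p was not seen among 14749540 assigned reads of the siRNA libraries, which allows up to 0.203 CPM by the limit of 3 reads. It stood at 0.486 CPM (0.100 to 1.42) in untreated cells. With at most 3 reads per arm and library, a difference in either arm of miR-483 was not tested.

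The hairpins within H19 and IGF2 were thus read at very unequal levels. Of all miR-675 and miR-483 reads together, miR-483 made up 4 of 2935 in siRNA libraries, or 0.136% (95% Clopper-Pearson interval 0.0371% to 0.349%). In untreated cells it made up 4 of 1504, or 0.266% (0.0725% to 0.680%), and these intervals overlap. The log2 ratio of miR-675 to miR-483 reads, with 0.5 added to each, was 8.98 ± 0.97 in siRNA libraries (SD, n = 6) and 8.38 in untreated cells. The exact two-sided permutation test gave p = 1, and the difference of 0.60 shrank to 0.07 when 1 read was added in place of 0.5. This ratio compares mature miRNA reads and says nothing of how much H19 or IGF2 RNA the cells held.

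The miRNAs whose levels ran most like each arm were sought among 274 miRNAs over the 7 libraries, by the root mean square difference of centred log2 CPM. For miR-675-5p these were miR-93-5p, from the MCM7 cluster, at 0.185, let-7g-5p at 0.196 and miR-500a-3p at 0.201, against a median of 0.522 over all compared. miR-675-3p, cut from the same hairpin, came only at place 152 with 0.550. For miR-675-3p the nearest were miR-361-5p at 0.116, miR-29a-3p at 0.120 and miR-324-3p at 0.124, against a median of 0.409, and miR-675-5p came at place 202. These distances are descriptions over libraries that share cell line and scaling. Without the 36 h pair, 2 of the 3 nearest miRNAs of each arm stayed, with miR-30e-5p in place of miR-500a-3p and miR-95-3p in place of miR-29a-3p.

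miR-93-5p had 1233 CPM with siRNA 2 and 1674 CPM with siRNA 1 at 24 h, 1119 and 1722 CPM at 36 h, and 1140 and 938 CPM at 48 h, against 1668 CPM in untreated cells. It shared with miR-675-5p the higher siRNA 1 libraries of 24 h and 36 h, but these reached its untreated value. miR-361-5p had 180 CPM with siRNA 2 and 146 CPM with siRNA 1 at 24 h, 120 and 172 CPM at 36 h, and 199 and 164 CPM at 48 h, against 145 CPM in untreated cells. Like miR-675-3p, it was highest with siRNA 2 at 48 h.

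Other imprinted regions gave few miRNAs to set beside miR-675. A list of 57 miRNAs from the MEST, GNAS, DLK1-MEG3 and chromosome 19 clusters had 5 that reached the mean of 10 reads, and 21 were at 0 in every library. None of the 35 listed from the DLK1-MEG3 region was tested, while miR-675-5p alone had 1139 reads in the untreated library. None of the 5 was called in any of the 6 comparisons (edgeR). Over all times, their median log2 fold change was -0.33, against -0.05 for all tested miRNAs, and at 48 h it was -0.55 against -0.02. Single values ran from -0.97 to 0.44 over all times and from -1.60 to 0.53 at 48 h. Most of the 5 are paired arms of miR-335 and miR-296, so they are not separate hairpins.

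miR-335-3p, from an intron of MEST, a gene transcribed from the paternal chromosome, averaged 113 ± 20.05 CPM in siRNA libraries (SD, n = 6) and had 170 CPM in untreated cells, and all 6 siRNA libraries were below the untreated one. Its log2 fold change was -0.61 ± 0.31 (SE; adjusted p = 0.899, edgeR). Its partner miR-335-5p averaged 8.95 ± 5.98 CPM in siRNA libraries (SD, n = 6) and had 16.4 CPM in untreated cells, so the means of both arms stood below the untreated values. For miR-335-5p the order of single libraries rests on the scaling. On total-count CPM, siRNA 1 at 36 h had 16.7 CPM and the untreated library 14.3 CPM, from 32 and 88 reads. The arm ratio of miR-335 differed by -0.65 ± 1.01 (SE; adjusted p = 0.895, limma).

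The GNAS region gave miR-296. miR-296-3p averaged 178 ± 35.1 CPM in siRNA libraries (SD, n = 6) and had 223 CPM in untreated cells, with 5 of 6 siRNA libraries below. miR-296-5p averaged 19.6 ± 6.32 CPM in siRNA libraries (SD, n = 6) and had 14.4 CPM in untreated cells, with 4 of 6 above. The arm ratio of miR-296 differed by 0.74 ± 0.52 (SE; adjusted p = 0.890, limma), in the opposite direction to that of miR-675, and neither was called. miR-516a-5p, of the chromosome 19 cluster, averaged 10.2 ± 3.18 CPM in siRNA libraries (SD, n = 6) and had 11.004 CPM in untreated cells.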

How the data were processed

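Per the labels' protocols, total RNA from HepG2 cells was taken with a column kit and made into libraries with an NEB small RNA kit. The files deposited by the authors, 1 per library, hold raw read counts per mature miRNA and 5 summary lines of a read counter. The aligner, counter and build used are not given in the sources here. The summary lines entered neither the library sizes nor any test. Reads without a feature were 73.5% to 86.6% of siRNA libraries and 56.9% of the untreated library. The 4 members were found by name.

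The test was edgeR 4.0.16 in R 4.3.3 (quasi-likelihood F-test, TMM factors, mean count of at least 10, Benjamini-Hochberg adjustment, threshold 0.05). A single fit held untreated cells and the 3 times, and in it the lone untreated library is assumed to vary like the pairs of each time. siRNA 2 was compared with siRNA 1 in 6 libraries with time as a factor. Alternatives were DESeq2 1.42.0, limma-voom (limma 3.58.1), other scalings and count filters, a block for the siRNA number and each library left out. The limma fit of arm ratios over hairpins, the fit of summed arms, the fits with a GC trend removed and the arm-ratio fits with libraries left out were chosen after seeing the data. Scripts were tested on simulated counts. Intervals are exact Clopper-Pearson intervals at 95%. The siRNA numbers name the 2 reagents; they defined the siRNA comparison and, as an alternative, the block. By rule, the 4 members, the imprinted list and, for each tested member, the 3 miRNAs with the smallest root mean square difference in centred log2 CPM (mean count of at least 50) were named, and miR-1-3p and miR-122-5p were singled out after their values were seen. Members, lists and named miRNAs were chosen with earlier results of these data known.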

Additional observations from a re-analysis of the deposited data

Results flagged for a closer look

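In the sum of 7 muscle miRNAs, 1 of the 6 siRNA libraries was far from the others. siRNA 1 at 36 h stood at 881 CPM, and the other siRNA libraries at 21.6 to 53.2 CPM, with 24.1 CPM in untreated cells. Nearly all of it was miR-1-3p, at 867 CPM. Of 14 quantities examined for a library far from the other 5 (Dixon's test at 95%), this was the 1 that stood out; chance alone marks about 1 in 20. Neither arm of miR-675 nor its arm share did so. In that library, miR-675-5p had 154 CPM and miR-675-3p 87.6 CPM.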

How the results depend on the processing

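miR-675-5p stayed negative in all 6 comparisons under every alternative run, and the number of members called was 0 unless named here. With all reads as the scale, 1 member (miR-675-5p) was called over all times, at 36 h and at 48 h. Without both 36 h libraries, 1 was called over all times and at 48 h, and leaving out single libraries gave 0 to 1 over all times, at 36 h and at 48 h. miR-675-3p turned negative with all reads as the scale, to -0.86 over all times, -0.85 at 24 h, -1.03 at 36 h and -0.69 at 48 h. With single libraries left out, it ranged from -0.023 to 0.22 at 24 h and from -0.058 to 0.33 for siRNA 2 over siRNA 1, and the cause was not tested.

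The number of all miRNAs called was 0 over all times, at 24, 36 and 48 h and for 48 h over 24 h. For these 5 comparisons in that order, DESeq2 called 1, 1, 7, 12 and 21, all reads as the scale 120, 2, 49, 118 and 29, and no count filter 12, 2, 10, 39 and 51. Leaving out single libraries gave 0 to 65, 0 to 14, 0 to 91, 0 to 113 and 0 to 131. Without both 36 h libraries, 50 were called over all times, 13 at 24 h, 117 at 48 h and 134 for 48 h over 24 h.

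The arm ratio of miR-675 ranged from -1.28 to -1.002 over all times from -1.28 to -0.44 at 24 h, from -1.61 to -1.59 at 48 h and from -1.16 to -0.32 for 48 h over 24 h with single libraries left out, and was -1.60 at 48 h without both 36 h libraries. The summed arms stood at 0.072, against -0.11 with all libraries, for siRNA 2 over siRNA 1 without both 36 h libraries. With 1 pseudocount read per arm or a GC trend removed, no call on miR-675 changed.

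Libraries with the same siRNA number received the same siRNA, and no label says that they share a culture or day. Their deviations correlated at 0.10, -0.25 and -0.16 between times, so the numbers were not taken to pair the libraries. With a replicate block, the untreated library is set level with siRNA 1, so values against untreated cells are estimates for siRNA 1 alone. For miR-675-5p these were -0.73 over all times, -0.59 at 24 h, -0.60 at 36 h and -0.997 at 48 h. They are thus no check on the mean of both siRNAs. For 48 h over 24 h, which uses no untreated library, the value was -0.41. With the block, edgeR called no miRNA. Of 110 arm ratios, limma called 12 for 48 h over 24 h, miR-675 not among them (adjusted p = 0.566). The single untreated library limits each comparison with it, and miR-483, with at most 3 reads per arm and library, was too low to test.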
